A study of Mus musculus with 8 samples.

Results

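C1q and TNF related proteins (the C1qtnf genes, also called CTRP genes) are secreted factors related to adiponectin. Most have a signal peptide, a collagen-like stretch and a C-terminal globular domain of the complement C1q type, which folds like tumour necrosis factor and joins chains into trimers. Family members are known as circulating or local signals of metabolism, inflammation and matrix tissue. They were followed here in the embryonic choroid plexus, the epithelium and vascular stroma that make cerebrospinal fluid. A total of 8 genes were listed, C1qtnf1 to C1qtnf7 and C1qtnf12, and every probe set whose annotation named exactly 1 of them was taken. That gave 13 probe sets for 7 genes, out of 45101 probe sets and 18193 named genes on the array. C1qtnf5 had no probe set of its own, because its 1 probe set is annotated to Mfrp as well.

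The arrays held total RNA of choroid plexus from the fourth ventricle of mice at embryonic day 13, with 4 arrays labelled Otx2 k.o. and 4 labelled wildtype. Both groups had a mixed strain background, an undetermined sex, no treatment and the same litters as their source, per the labels. The knockouts are attributed to a published Otx2 deficient strain. The sources used here do not say how the gene was inactivated, in which cells, or how many embryos gave a sample. Labels call the arrays biological replicates, without saying whether each was a separate animal, so the p-values measure the spread between these samples.

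Otx2, the homeodomain factor named as deleted, was not lower but higher in the arrays labelled knockout (log2 difference 0.47, limma adjusted p = 0.000648). Its only probe set read 12.38, 12.46, 12.44 and 12.48 log2 units in them and 11.998, 12.05, 11.97 and 11.85 in the wildtype arrays. No source used here tells whether the deletion covers these probes, so the probe set does not check the labels. Every direction below rests on the labels, and the arrays are called knockout-labelled. Of 11 choroid epithelium markers 9 were lower and 0 higher, and the mean level of the list ran from 9.96 to 10.24 against 10.94 to 11.12. Fibroblast markers were higher in 9 of 10 genes, macrophage markers in 6 of 10, meningeal markers in 6 of 8 (median log2 difference 0.77, with 1 lower) and neural progenitor markers in 3 of 7. These calls are by limma at an adjusted p under 0.05, which 7.84% of all genes passed upward and 11.7% downward. In bulk tissue, fewer cells of a type and less RNA per cell cannot be told apart.

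The genes were chosen by name with the values of this same contrast, knockout-labelled against wildtype, in view, so their values are a description and carry no p-value. By the brightest probe set of each gene, 3 of the 7 were called higher (C1qtnf1, C1qtnf2, C1qtnf3) and 1 lower (C1qtnf12) by limma. For C1qtnf1 the choice of the brightest probe set itself depended on the knockout-labelled arrays, as given below. Over all 18193 genes 7.84% were called higher and 11.7% lower. The median log2 difference was 0.0056 for the 7 genes and 0.00049 for all genes. The groups did not overlap for the same 4 genes, against 9.98% of all genes with the knockout-labelled arrays on top and 14.4% with them below. Nothing about the family is read from these shares.

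**Figure D1:**
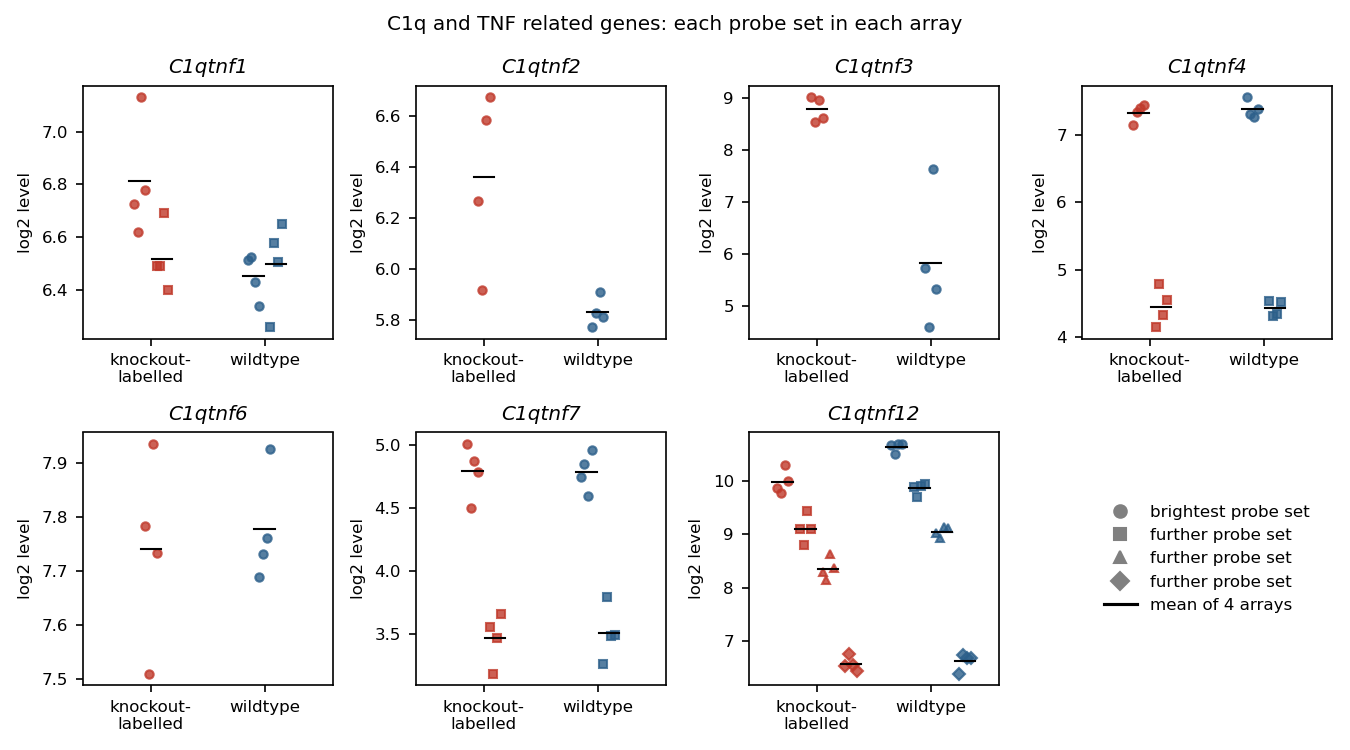
Level of each C1qtnf probe set in log2 units (y axis, its own scale per gene) in the 4 knockout-labelled and 4 wildtype arrays; each point is an array and each black bar a group mean. The groups lie apart for C1qtnf3, C1qtnf2, the brighter C1qtnf1 probe set and 3 of 4 C1qtnf12 probe sets, and overlap for C1qtnf4, C1qtnf6 and C1qtnf7.

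Promoter sequences of 5 of the 8 genes were at hand from RefSeq (GRCm38.p6): C1qtnf2, C1qtnf3, C1qtnf5, C1qtnf6 and C1qtnf7. The 250 bases before the listed start were searched on both strands for TAATCC, the sequence bound by homeodomain proteins of the Otx type, and for its core TAAT, which lies inside TAATCC and is shared by most homeodomain proteins. TAATCC or its reverse complement stood in 1 of the 5 windows, that of C1qtnf5, and in 6.25% of 32851 such windows of all genes. The core stood in 3 of the 5 and in 54.9% of all windows. A pair of windows is printed, that of the gene with the largest difference and that with the longer motif, with the matched letters in capitals. Both are on the plus strand, C1qtnf3 at chr15:10952082-10952331 with its core 22 bases before the start, and C1qtnf5, whose window is also listed for Mfrp, at chr9:44101520-44101769 with its motif 134 bases before the start.
C1qtnf3: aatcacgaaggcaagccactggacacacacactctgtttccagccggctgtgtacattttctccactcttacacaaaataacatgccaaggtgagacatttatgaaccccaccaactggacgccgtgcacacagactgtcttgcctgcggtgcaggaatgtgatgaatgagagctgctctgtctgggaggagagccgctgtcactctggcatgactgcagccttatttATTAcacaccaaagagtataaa
C1qtnf5: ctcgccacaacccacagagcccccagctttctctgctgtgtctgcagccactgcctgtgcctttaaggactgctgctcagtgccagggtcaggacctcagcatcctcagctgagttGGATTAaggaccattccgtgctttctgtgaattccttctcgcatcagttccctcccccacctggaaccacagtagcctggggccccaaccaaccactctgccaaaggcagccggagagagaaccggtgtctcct
A match in letters does not show that a factor binds there, and no binding was measured.

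C1qtnf3, also known as cartonectin, is a secreted protein first found in cartilage precursors and later in fat tissue. Its only probe set read 9.01, 8.54, 8.96 and 8.60 log2 units in the knockout-labelled arrays and 5.72, 4.59, 7.63 and 5.33 in the wildtype arrays. Array medians were 5.85 to 5.90 and the lower quartile of all values was 4.33. All wildtype values but that of replicate 3 were thus below the medians, and the fold rests in part on dim values. All knockout-labelled arrays lay within 0.46 of each other, while the wildtype arrays spread over 3.04, with replicate 3 far up. The lowest knockout-labelled array was still 0.91 above that replicate. The means were 8.78 ± 0.24 and 5.82 ± 1.30 (SD, n = 4 each), a log2 difference of 2.96 with an SE of 0.53, or 7.78-fold. Only 2 of the 18193 genes had a larger rise. Without wildtype replicate 3 the difference was 3.56, and without wildtype replicate 2 it was 2.55.

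The wildtype spread of C1qtnf3 was wide for this array set: only 11 genes had a larger SD over the 4 wildtype arrays. Replicate 3 exceeded the next wildtype array by 1.91 for C1qtnf3, the second-widest such gap of all genes after that of Meox2 (2.53), a mesodermal homeobox gene. Fibin followed with a gap of 1.75, the potassium channel gene Kcnh1 with 1.47, the angiotensin receptor gene Agtr2 with 1.32 and the matrix protein gene Egfl6 with 1.03. These genes were named after their values were seen. Most of them did not share the rest of the C1qtnf3 profile. Meox2 read 7.86 in knockout-labelled replicate 1 but 4.75, 4.41 and 5.55 in replicates 2 to 4, and Fibin 8.72 against 6.20, 6.34 and 6.18. Agtr2 read 6.10 to 7.23 in the knockout-labelled arrays and is the only 1 of the 5 that limma called (log2 difference 1.28, adjusted p = 0.0475).

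Cartilage markers were read beside C1qtnf3 because of its known source. Of 10 such genes 3 were higher and 1 lower by limma, against 7.84% and 11.7% of all genes. Their mean level was 8.24 in knockout-labelled replicate 1 and 6.91, 7.21 and 6.93 in replicates 2, 3 and 4, against 6.79 to 6.92 in the wildtype arrays. Wildtype replicate 3 stood at 6.91. For 4 of the 10 genes, Col2a1, Col11a1, Hapln1 and Cnmd, all knockout-labelled arrays were above all wildtype arrays, with log2 differences of 0.66, 0.75, 1.11 and 2.09. Col2a1 was not called (limma adjusted p = 0.0713). Groups lay apart in this direction for 9.98% of all genes and in the other for 14.4%. The 1 that fell was Col9a3, at -1.16 (limma adjusted p = 0.000194), with all knockout-labelled arrays below all wildtype arrays. Col9a1, Acan, Matn1 and Matn4 had overlapping groups, with their highest value in knockout-labelled replicate 1. Snorc was at -0.03 and overlapped too. Without knockout-labelled replicate 1, C1qtnf3 stayed higher in the other 3 arrays, which read 8.54 to 8.96. Fibroblast markers had a mean level of 10.40 to 10.66 in the knockout-labelled arrays and 9.86 to 9.98 in the wildtype arrays, the highest wildtype value being that of replicate 3. Meningeal markers had a mean level of 9.18 to 9.98 against 8.95 to 9.19. The part of cartilage, fibroblast or meningeal cells in the C1qtnf3 difference was not tested.

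The genes whose 8 values lay closest to those of C1qtnf3, each gene centred on its mean, were Gcnt1, Dkk2, Tmem200c, Spock3 and S100b. The root mean square differences ran from 0.78 to 0.86 log2 units over 8 arrays. The 5 genes had wildtype SDs of 0.05 to 0.35, against 1.30 for C1qtnf3. Gcnt1, which encodes a glycosyltransferase, read 8.91 to 9.04 against 5.91 to 6.23. Dkk2, a secreted Wnt modulator, read 10.97 to 11.21 against 8.27 to 8.37. S100b, a calcium-binding protein gene, read 6.84 to 7.46 against 4.84 to 5.30.

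**Figure D2:**
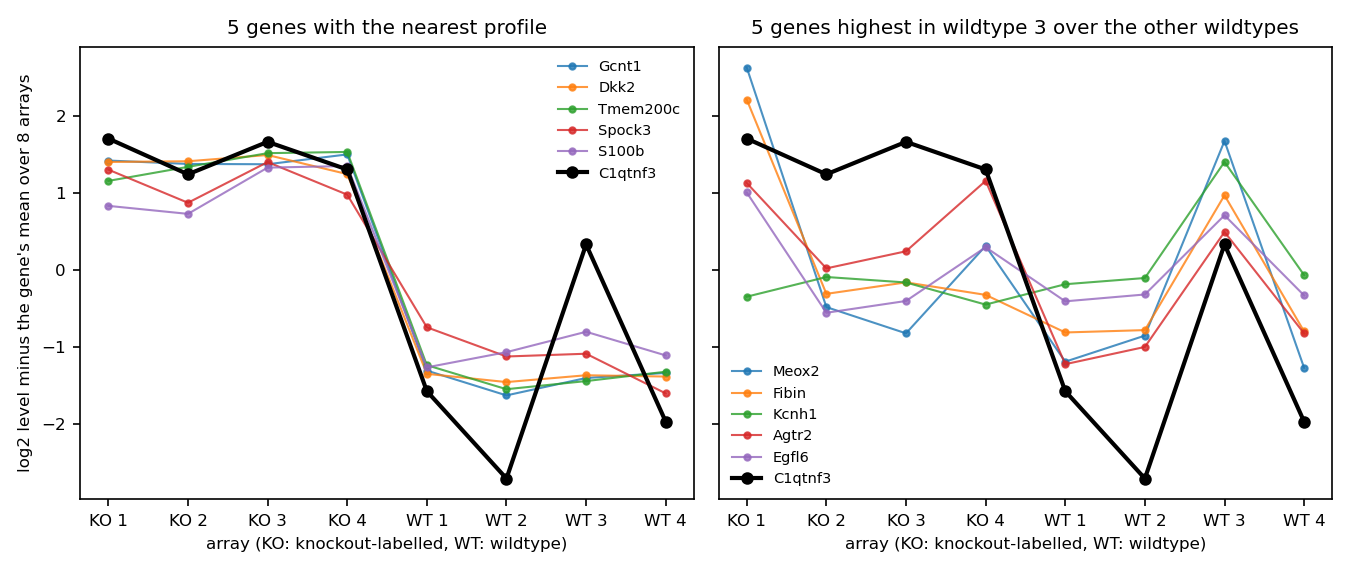
Level of C1qtnf3 (black) in each of 8 arrays, as log2 units minus the gene's mean over all arrays (y axis), with its 5 nearest genes (left) and the 5 other genes in which wildtype replicate 3 most exceeded the other wildtype arrays (right). C1qtnf3 is level over the knockout-labelled arrays and varies over the wildtype arrays, with replicate 3 on top; Meox2 and Fibin peak in knockout-labelled replicate 1 and wildtype replicate 3.

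C1qtnf2, a secreted member linked to fat and muscle metabolism, read 6.27, 5.92, 6.58 and 6.67 in the knockout-labelled arrays and 5.77, 5.83, 5.91 and 5.81 in the wildtype arrays. The groups were apart by only 0.0079, since knockout-labelled replicate 2 nearly met wildtype replicate 3. The log2 difference was 0.53 with an SE of 0.15 (6.36 ± 0.34 against 5.83 ± 0.06, SD, n = 4 each). It held its call in 6 of 14 alternative fits, and in 1 of the 8 fits without 1 array, that without knockout-labelled replicate 2. The nearest profiles belonged to Gstt1, a glutathione transferase gene, and to Stag3, Cd86, Tmc7 and Adamts7, at root mean square differences of 0.047 to 0.088. Cd86 is a costimulatory molecule of macrophages and dendritic cells. Macrophage markers had a mean level of 9.13, 9.06, 9.55 and 9.48 in the knockout-labelled arrays, highest in replicates 3 and 4 as C1qtnf2 was, and of 8.54 to 8.76 in the wildtype arrays. Meningeal markers, at 9.41, 9.18, 9.98 and 9.71 in the knockout-labelled arrays, were highest in replicates 3 and 4 as well. The part of macrophages or meningeal cells in the C1qtnf2 difference was not tested.

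C1qtnf1, a plasma protein of vessel wall and fat tissue, had 2 probe sets that disagreed. The brighter one read 6.72, 6.62, 7.13 and 6.78 against 6.51, 6.53, 6.43 and 6.34, a log2 difference of 0.36 with an SE of 0.11. The groups were apart by 0.094, and replicate 3 was the high one among the knockout-labelled arrays. The other read 6.49, 6.49, 6.69 and 6.40 against 6.26, 6.58, 6.504 and 6.65, with a difference of 0.02 and overlapping groups. Calling C1qtnf1 higher depends on the choice: the call was lost in 11 of 14 alternative fits, among them the replicate block, the mean of its probe sets, and 7 of the 8 fits without 1 array. It was not called either when all 45037 probe sets that are not controls were tested. In that fit 2 of the 13 probe sets were called higher, against 5.27% of all probe sets, and 3 lower, against 7.46%. The groups were apart upward for 3 and downward for 3, against 8.04% and 10.8% of all probe sets.

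C1qtnf12, or adipolin, is an insulin-sensitising hormone of fat tissue that the protease furin cleaves. Its brightest probe set read 9.87, 9.77, 10.30 and 9.998 log2 units in the knockout-labelled arrays and 10.68, 10.50, 10.69 and 10.70 in the wildtype arrays. The highest knockout-labelled array, replicate 3, was 0.21 below the lowest wildtype array. The log2 difference was -0.66 with an SE of 0.11 (9.98 ± 0.23 against 10.64 ± 0.09, SD, n = 4 each), or 1.58-fold lower. A further pair of its probe sets gave -0.75 and -0.70, also with groups apart. The dimmest gave -0.05 (6.57 ± 0.13 against 6.62 ± 0.16). The call of C1qtnf12 held in 15 of 15 alternative fits, with differences from -0.76 to -0.54.

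The probe set annotated to both Mfrp and C1qtnf5 had the same direction. Mfrp, a membrane frizzled-related protein, and C1qtnf5, a secreted protein of the retinal pigment epithelium mutated in a late-onset retinal degeneration, are known to be made from a shared transcript. It read 9.37, 9.61, 9.68 and 9.57 against 10.33, 10.47, 10.33 and 10.45, a difference of -0.84 with an SE of 0.08. The groups were apart, and the value cannot be assigned to either gene.

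The epithelial marker list moved the same way as these probe sets. Its median log2 difference was -1.01, larger than that of C1qtnf12. Folr1, the folate receptor, changed by -1.12 and Clic6, a chloride channel gene, by -0.74, while Ttr, the thyroid hormone carrier, was at -0.05. Among the knockout-labelled arrays, replicate 3 was the highest both for the epithelial list (10.24) and for C1qtnf12 (10.30), while the lowest was replicate 1 for the list (9.96) and replicate 2 for C1qtnf12 (9.77). The part of the epithelial share of the tissue in the C1qtnf12 difference was not tested.

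The genes with the profile nearest to C1qtnf12 were Ccdc106, Tmem254a, Adamtsl1, Zc3h6 and Clmn, at root mean square differences of 0.066 to 0.081. Clmn encodes an actin-binding membrane protein and read 8.06 to 8.51 against 8.95 to 8.99. Adamtsl1, a secreted matrix protein gene, read 7.33 to 7.88 against 8.22 to 8.34.

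**Figure D3:**
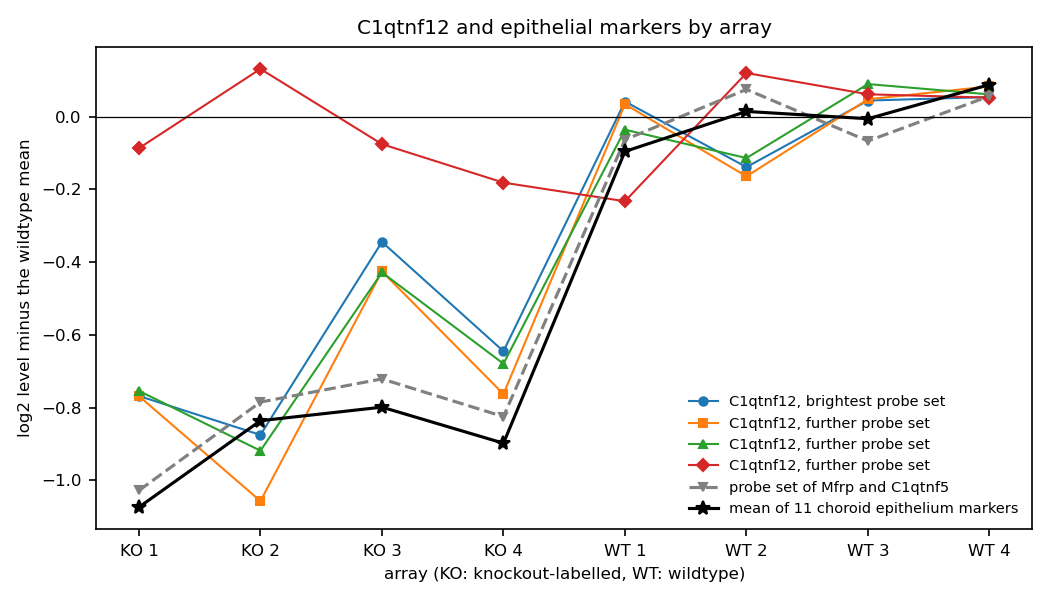
Level of the 4 C1qtnf12 probe sets, of the probe set listed for Mfrp and C1qtnf5 (dashed) and of the mean of 11 choroid epithelium markers (black) in each of 8 arrays, as log2 units minus the wildtype mean (y axis). All but the dimmest C1qtnf12 probe set lie below 0 in all 4 knockout-labelled arrays, and C1qtnf12 is least low in replicate 3.

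The remaining 3 genes showed no separation of the groups. C1qtnf4, which carries tandem C1q domains without a collagen-like stretch and is known in the hypothalamus, read 7.14, 7.33, 7.39 and 7.43 against 7.55, 7.30, 7.27 and 7.37. Its difference was -0.05 with an SE of 0.09, and its dim second probe set gave 0.03. C1qtnf6, a secreted member expressed in many tissues, read 7.78, 7.51, 7.94 and 7.74 against 7.69, 7.73, 7.76 and 7.93, a difference of -0.04 with an SE of 0.10. C1qtnf7 read 5.01, 4.50, 4.88 and 4.79 against 4.74, 4.85, 4.59 and 4.96, a difference of 0.0056 with an SE of 0.12, and its second probe set gave -0.04 at a level of 3.47 ± 0.20 against 3.51 ± 0.22. The lower quartile of all values was 4.33, below the brighter C1qtnf7 probe set and above the second.

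Replicate 2 held the lowest knockout-labelled value for 6 of the 7 genes, C1qtnf4 being the exception. The same array had the highest mean of the neuron markers in its group, 9.45 against 7.75 to 8.27, and the lowest means of fibroblast, meningeal and macrophage markers. Replicate 3 held the highest value for 3 genes (C1qtnf1, C1qtnf6 and C1qtnf12) and the highest means of choroid epithelium, meningeal and macrophage markers. The part of tissue composition in this order was not tested.

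Relatives outside the family were read from a list of 23 genes with a C1q domain, of which 20 were measured. By limma 7 rose and 2 fell, with a median of 0.12, against 7.84% and 11.7% of all genes. Cbln2, a secreted organiser of synapses, rose most, from 6.66 ± 0.11 to 8.58 ± 0.18 (log2 difference 1.92, SE 0.10, adjusted p = 4.89e-06). Its arrays read 8.32, 8.65, 8.74 and 8.61 against 6.76, 6.63, 6.75 and 6.52, with tight groups far apart. Neuron markers had overlapping means, 7.75 to 9.45 against 7.45 to 9.11, and 0 of 9 were called by limma. Of 7 neural progenitor markers 3 were higher and 0 lower by limma (median 0.38), among them Nes, the intermediate filament nestin, at 0.65 (adjusted p = 0.000343). The part of these cells in the Cbln2 difference was not tested. Cbln3, a cerebellin best known from cerebellar granule cells, rose by 0.43 (adjusted p = 0.00078) at a dim level, 5.04 ± 0.06 against 4.61 ± 0.05. A still dimmer second probe set was at 0.14 and did not pass. Cbln1 was at 0.50 and C1ql3 at 0.72, and neither passed, although C1ql3 did without wildtype replicate 1 (1.00, adjusted p = 0.000965). Further probe sets of C1ql3 gave 0.19 and 0.15 and did not pass, nor did the mean of its probe sets (0.35, adjusted p = 0.209).

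C1qa, C1qb and C1qc, the chains of complement C1q made mainly by macrophages, rose by 0.75, 0.59 and 0.64. The adjusted p of C1qa was 0.00221 and that of C1qb 0.00695. Further probe sets of C1qb gave 0.48 and 0.84. C1qc, named here after its values were seen, read 9.17, 9.32, 9.73 and 9.72 against 8.82, 8.91, 8.70 and 8.94. Levels of all 3 chains were higher in knockout-labelled replicates 3 and 4 than in 1 and 2, as were the macrophage markers. The mean of the meningeal markers was also higher in replicates 3 and 4 (9.98 and 9.71) than in 1 and 2 (9.41 and 9.18). The part of either cell type in the rise of these chains was not tested. Emilin1 and Emilin2, elastic fibre glycoproteins also named after their values were seen, rose by 0.33 and 0.54 but were not called in 6 and 4 of the 8 fits that omit an array. For Emilin1 these left out any 1 wildtype array, or knockout-labelled replicate 1 or 3 (adjusted p up to 0.105), and the replicate block lost it too (adjusted p = 0.0823). For Emilin2 they left out wildtype replicate 1, 2 or 4 or replicate 3 of the knockout-labelled group (adjusted p up to 0.0838). A further Emilin1 probe set gave 0.08 and did not pass.

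Col8a1 and Col8a2, the short-chain collagens of type VIII, fell. Col8a1 read 8.89, 8.66, 8.54 and 8.83 against 10.82, 10.89, 10.79 and 10.83, a log2 difference of -2.11 (SE 0.08, limma adjusted p = 1.38e-06). Its further probe sets gave -2.05 and -1.20. Col8a2 changed by -0.32 (adjusted p = 0.0113). The epithelial marker list had a median log2 difference of -1.01, and the part of the epithelial share in the falls of Col8a1 and Col8a2 was not tested. Without wildtype replicate 3 the number that fell was 4, with Cbln4 (-0.51, adjusted p = 0.013) and Mmrn2 (-0.25, adjusted p = 0.0355) added. Adipoq, adiponectin itself, was at 2.88 ± 0.12 against 2.98 ± 0.10, and C1qtnf9 at 5.17 ± 0.16 against 5.12 ± 0.08. Neither passed the test.

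**Figure D4:**
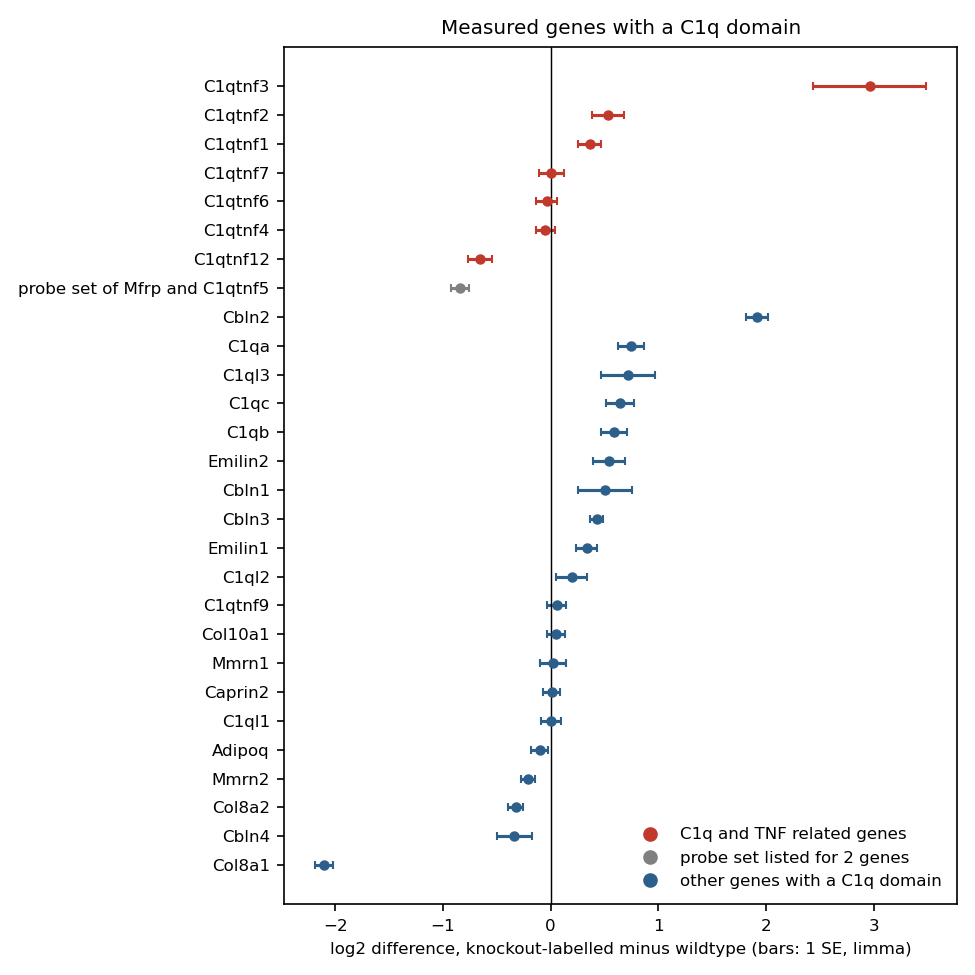
Log2 difference between knockout-labelled and wildtype arrays (x axis; bars are 1 SE from limma, 4 arrays per group) for the brightest probe set of each measured gene with a C1q domain and for the probe set listed for Mfrp and C1qtnf5. C1qtnf3 (2.96) and Cbln2 (1.92) stand at the top end and Col8a1 (-2.11) at the bottom.

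Of 18 listed receptors and partners 15 were measured, and 2 rose and 1 fell by limma, with a median of 0.06. The shares over all genes were 7.84% and 11.7%, and with so few genes nothing is read from the difference. Adipor1, a receptor of adiponectin, fell from 10.25 ± 0.08 to 9.89 ± 0.07 (log2 difference -0.36, SE 0.07, adjusted p = 0.00445), and its other probe sets gave -0.42 and -0.41. The part of the epithelial share of the tissue in the Adipor1 difference was not tested. Adipor2 was at -0.10 and did not pass. Cdh13, or T-cadherin, which binds adiponectin at the cell surface, rose by 0.44 (adjusted p = 0.00905). Its further probe sets gave 0.44, 0.07 and 0.02, of which the first passed, and the mean of all its probe sets gave 0.24 (adjusted p = 0.0258). Scarb2, a lysosomal membrane protein gene, rose by 0.24 (adjusted p = 0.0181), a call that ended when wildtype replicate 2, 3 or 4 was omitted (adjusted p up to 0.0607). Its further probe set gave 0.11 and did not pass, nor did the mean of its probe sets (0.18, adjusted p = 0.0674). Furin was at -0.09 and did not pass. Lrp1, an endocytic receptor gene named after its values were seen, was at 0.15 and did not pass, while its dimmer probe set gave 0.68 (limma over probe sets, adjusted p = 0.0286).

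Of 14 genes that process collagen domains and secreted multimers, 5 rose and 1 fell by limma, with a median of 0.08, against 7.84% and 11.7% of all genes. Plod2, a lysyl hydroxylase, rose by 0.53 (adjusted p = 0.00111). Ero1b, an oxidase of the endoplasmic reticulum, fell by 0.87 on the log2 scale (adjusted p = 5.24e-05), and by 0.44 as the mean of its probe sets (adjusted p = 0.0114). The part of the epithelial share of the tissue in the Ero1b difference was not tested. The other 4 that rose, Plod1, Colgalt2, Ero1a and P4hb (the last named after its values were seen), had differences of 0.42, 0.24, 0.22 and 0.20. With the replicate number as a block 2 of the list rose. Without wildtype replicate 1 or 2, or replicate 1 or 3 of the knockout-labelled group, only 1 did, and without knockout-labelled replicate 4 or wildtype replicate 3 or 4 it was 2. A dim further probe set of Plod1 was at -0.08, 1 of Ero1a at -0.04 and 1 of Ero1b at 0.04, against their genes' direction, and none passed. The mean of probe sets gave 0.17 for Plod1 (adjusted p = 0.35) and 0.10 for Ero1a (adjusted p = 0.404), so both calls were lost. P4ha2, at -0.31, passed as a second gene that fell without knockout-labelled replicate 1 (adjusted p = 0.0328).

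Among 15 measured genes of AMPK and Akt signalling, a pathway commonly read downstream of these hormones, 2 rose and 4 fell by limma, with a median of 0.03, against 7.84% and 11.7% of all genes. Prkaa2, a catalytic subunit of the energy sensor AMPK, fell from 8.86 ± 0.08 to 7.33 ± 0.16 (log2 difference -1.53, SE 0.09, adjusted p = 8.63e-06). Its arrays read 7.12, 7.43, 7.29 and 7.49 against 8.87, 8.82, 8.77 and 8.97, and its other probe sets gave -1.24 and -1.20. Prkaa1, the other catalytic subunit, changed by -0.59 (adjusted p = 0.0029). The regulatory subunit gene Prkab2 rose by 0.44 (adjusted p = 0.00186). Its further probe sets gave 0.33, which passed, and 0.11, which did not. A further 3 subunits, Prkab1, Prkag1 and Prkag2, were at 0.01, -0.03 and 0.18 and did not pass. Acacb and Cpt1a, which set fatty acid oxidation, changed by -0.72 (adjusted p = 0.000769) and -0.37 (adjusted p = 0.0101). Their further probe sets, -0.14 for Acacb and -0.24 and -0.22 for Cpt1a, did not pass. The mean of probe sets gave -0.43 for Acacb (adjusted p = 0.00746) and -0.28 for Cpt1a (adjusted p = 0.0106). The epithelial marker list had a median log2 difference of -1.01. The part of the epithelial share of the tissue in the falls of Prkaa2, Prkaa1, Acacb and Cpt1a was not tested. Akt1 rose by 0.20 (adjusted p = 0.0425), a call lost with the replicate block (adjusted p = 0.0802) and in 7 of the 8 fits that omit an array (adjusted p up to 0.114), the exception being knockout-labelled replicate 1. Median centring lost it too (adjusted p = 0.0837). Further probe sets of Akt1 gave 0.11, 0.21 and -0.05 and did not pass, nor did the mean of its probe sets (0.12, adjusted p = 0.258).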

How the data were processed

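Choroid plexus RNA from the fourth ventricle at embryonic day 13 was measured on 8 arrays, 4 per group. The deposited values are log2 levels per probe set made with RMA by the authors, per the submitters' processing notes; no source used here names the software version. RMA brings the arrays to 1 distribution, so a change in total RNA is not visible, and dim values approach background, which has no separate measure here. Array medians lay between 5.85 and 5.90, and pairs of arrays correlated at 0.984 to 0.997 over genes, which are no replicates of each other. No build is named for the array.

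Of 45101 probe sets 64 were controls and 34945 had 1 gene. Each of 18193 genes was read from its brightest probe set, judged by the mean of 8 arrays, and all 7 measured symbols matched the reference table by gene identifier. Groups were compared with limma 3.58.1 in R 4.3.3 (lmFit, eBayes, two-sided, no filter, Benjamini-Hochberg, calls at an adjusted p under 0.05), and every adjusted p in the text is from it. A second fit took all probe sets that are not controls. The procedure was tested on simulated data.

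The genes and lists were chosen with earlier results of these data known. Named were all C1qtnf probe sets, up to 4 called genes per direction and list by p, and the 5 nearest genes of the 3 members with the largest differences; markers and exceptions are named as such. Same-numbered arrays deviated together (correlations across genes of 0.13, 0.23, 0.16 and 0.22, above the limit of 0.1). A pairing by number was inferred from these values only. The main comparison ignored it, and pairing entered only in the alternative called replicate block. Arrays of different number correlated at -0.30 to 0.29, and knockout-labelled replicate 3 at 0.29 with an array of another number, above its own 0.16. Alternatives were the replicate block, array weights, a trended robust prior, the mean of probe sets, median centring, a filter on dim genes, an adjusted p under 0.01, removal of ambiguous probe sets and leaving out each array.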

Additional observations from a re-analysis of the deposited data

Results flagged for a closer look

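In 4 of 68 groups of 4 arrays, 1 array lay far from the others of its group by Dixon's criterion, which chance meets in about 1 group of 20. The brightest C1qtnf12 probe set was low in wildtype replicate 2, at 10.50 against 10.68 to 10.70. Scarb2 was high in wildtype replicate 1, at 10.33 against 10.17 to 10.20. Acacb was low in knockout-labelled replicate 1, at 6.08 against 6.37 to 6.39. Prkaa1 was low in knockout-labelled replicate 2, at 5.58 against 5.99 to 6.01. The wide wildtype spread of C1qtnf3 did not meet the criterion.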

How the results depend on the processing

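C1qtnf3 stayed called higher and C1qtnf12 called lower in all 15 alternative fits in which they were tested. These fits reuse the values that were in view when the genes were chosen, so they describe stability and are no further evidence. An adjusted p under 0.01 is the main fit at a stricter limit. C1qtnf3 passed the filter on dim genes only through its knockout-labelled mean of 8.78, since its wildtype mean was 5.82. The number of C1qtnf genes called higher was 3, and 1 over genes above the median level (where C1qtnf1, C1qtnf2 and C1qtnf7 were not tested), 1 at an adjusted p under 0.01, and 1 to 3 without 1 array. At an adjusted p under 0.01, 601 genes were higher and 1349 lower, and of the lists 1 C1q-domain relative was lower, 1 receptor or partner higher, 1 collagen-processing gene higher and 1 signalling gene higher. With the replicate block 2 collagen-processing genes and 1 signalling gene were higher; median centring of the arrays gave the same counts of 2 and 1. The mean of probe sets gave 1 receptor or partner, 3 collagen-processing genes and 1 signalling gene higher. Over genes above the median level 2 collagen-processing and 2 signalling genes were lower. The replicate block also ended the call of C1qtnf1, and of no other C1qtnf gene. Leaving out 1 array gave 905 (without wildtype replicate 3) to 1845 genes higher and 1633 to 2089 lower, 5 to 7 relatives higher and 2 to 4 lower, 1 to 2 receptors or partners higher, 1 to 5 collagen-processing genes higher and 1 to 2 lower, and 1 to 2 signalling genes higher. The causes of these changes were not tested, beyond the smaller numbers of genes or arrays that some settings leave. The number of arrays and the dim level of some probe sets limit what could be seen.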
